A study of Homo sapiens with 12 samples.

Results

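Molecular chaperones bind unfolded or partly folded proteins and help them to reach and keep their native shape. HSP70 proteins (HSPA genes) work in cycles that are started by J proteins (DNAJ genes) and reset by exchange factors, HSP90 proteins act late on signalling clients such as kinases, small heat shock proteins (HSPB genes) hold unfolded chains, and the ring-shaped chaperonins enclose them. Heat shock factor 1 (HSF1) drives many cytosolic members, and the unfolded protein response drives those of the endoplasmic reticulum (ER). The BCR-ABL1 kinase of chronic myeloid leukaemia is itself an HSP90 client.

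Heat shock and chaperone genes were taken by symbol (HSPA, HSPB, HSP90, HSPD1, HSPE1, HSPH1, DNAJA, DNAJB, DNAJC, CCT, TCP1 and HSF1), provided that some group had a probe detected (p under 0.05) on each of its 3 arrays. Of 86 such symbols on the array, 67 passed, out of 10208 genes tested in all, and 58 of the 67 were detected on all 12 arrays. They comprised 31 cytosolic or nuclear genes, 13 of the ER, 7 of the mitochondrion, the 8 subunits of the cytosolic chaperonin CCT, the regulator HSF1 and 7 that were not assigned to a compartment. Just inside the detection rule lay HSPA6, detected on 3 of 3 DMSO arrays and on 2 of 3 at each dasatinib time, and just outside it lay HSPA12A, detected on at most 2 arrays of any group. The other 18 symbols that did not pass, among them HSPA2, HSPB6, HSPB7 and HSPB8, were detected on at most 1 of 12 arrays.

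The cells were K562, a line from a patient with chronic myeloid leukaemia that carries BCR-ABL1, and the drug was dasatinib, which blocks the ABL kinase and the SRC family. All groups were grown with 10% fetal bovine serum and then held in medium with 0.1% serum, with 0.2% DMSO for 24 h or with dasatinib at 100 nM. Dasatinib was given for 4 h, 8 h or 24 h, and 3 arrays represent every group. Since the vehicle was sampled at 24 h alone, the 4 h and 8 h groups differ from it in drug and in time in low serum, which cannot be told apart. Whether the 3 arrays of 1 group stem from separate cultures is not stated by the labels, so p-values measure the spread between these arrays, which may be technical. A lower value can mean fewer cells that express a gene or less RNA per cell, which cannot be told apart in bulk RNA.

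The median raw signal per array was 134 to 160, with 17175 to 18927 of 47314 probes detected, and arrays of a group correlated at 0.989 to 0.992. All 13 erythroid markers on the array, the lineage that K562 is known to express, were detected on all 12 arrays, and their mean log2 level was 11.5 to 11.6 on DMSO arrays, 11.6 to 11.7 at 4 h, 12.1 at 8 h and 12.4 at 24 h of dasatinib. Of 7 megakaryocyte markers, 3 passed, PF4 and ITGB3 were detected on no array, and the mean of the 3 was 8.02 to 8.10 at 24 h of dasatinib and 6.30 to 6.46 in DMSO. Of 9 granulocyte and monocyte markers 2 passed, and MPO and ELANE were detected on no array; the mean of the 2 was 5.79 to 5.80 at 24 h of dasatinib and 6.58 to 7.02 in DMSO. Of 6 lymphoid markers on the array 2 passed, with means of 5.79 to 5.87 at 24 h of dasatinib and 7.65 to 8.01 in DMSO. Of 8 fibroblast or epithelial markers 4 passed, with means of 8.83 to 8.90 at 24 h and 9.44 to 9.54 in DMSO. These shifts accompany every 24 h result below, and their part in the chaperone values was not tested.

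To show examples of known regulatory sequence elements, the promoters of 8 members are printed for the 250 bases before the start site (RefSeq, GRCh38.p14). A RefSeq window of 300 bases (250 before and 50 after the start site) was held for 59 of the 67 members. In HSPA1A (chr6:31815293-31815542, + strand), HSPA1B (chr6:31827488-31827737, + strand), HSPA8 (chr11:123062137-123062386, - strand), DNAJB1 (chr19:14518398-14518647, - strand) and DNAJA4 (chr15:78264312-78264561, + strand), capitals mark a core heat shock element, GAANNTTC or TTCNNGAA, each of which reads the same on both strands. In HSPA5 (chr9:125241344-125241593, - strand) and HSP90B1 (chr12:103930160-103930409, + strand), capitals mark the ER stress response element on either strand (CCAAT, 9 free bases, then CCACG), whose first letters are also a CCAAT box. In HSPE1 (chr2:197500129-197500378, + strand), capitals mark the E-box CACGTG, a sequence bound by MYC and MAX.
HSPA1A: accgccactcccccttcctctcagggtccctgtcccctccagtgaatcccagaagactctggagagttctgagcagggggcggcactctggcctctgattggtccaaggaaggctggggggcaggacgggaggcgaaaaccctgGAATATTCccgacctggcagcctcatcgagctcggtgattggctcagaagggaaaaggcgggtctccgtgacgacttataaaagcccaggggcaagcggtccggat
HSPA1B: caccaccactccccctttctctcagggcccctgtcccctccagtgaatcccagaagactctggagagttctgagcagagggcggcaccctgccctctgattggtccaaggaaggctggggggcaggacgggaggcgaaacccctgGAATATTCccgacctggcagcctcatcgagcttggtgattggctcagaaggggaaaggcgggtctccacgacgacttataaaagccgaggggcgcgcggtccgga
HSPA8: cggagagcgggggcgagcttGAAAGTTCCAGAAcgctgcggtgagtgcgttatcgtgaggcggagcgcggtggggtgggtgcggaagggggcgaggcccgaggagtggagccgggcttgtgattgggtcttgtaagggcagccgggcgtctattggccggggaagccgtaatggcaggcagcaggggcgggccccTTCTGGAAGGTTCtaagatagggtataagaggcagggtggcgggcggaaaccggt
DNAJB1: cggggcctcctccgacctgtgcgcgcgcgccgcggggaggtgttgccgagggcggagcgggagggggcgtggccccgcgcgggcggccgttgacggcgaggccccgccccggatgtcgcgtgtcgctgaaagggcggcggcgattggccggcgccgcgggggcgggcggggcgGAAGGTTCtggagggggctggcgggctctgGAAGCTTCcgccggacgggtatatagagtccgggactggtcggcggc
DNAJA4: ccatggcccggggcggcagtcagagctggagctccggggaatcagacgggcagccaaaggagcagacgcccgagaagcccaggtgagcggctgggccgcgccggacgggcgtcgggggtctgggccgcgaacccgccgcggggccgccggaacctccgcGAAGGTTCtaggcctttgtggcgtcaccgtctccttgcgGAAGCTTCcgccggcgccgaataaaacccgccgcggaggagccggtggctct
HSPA5: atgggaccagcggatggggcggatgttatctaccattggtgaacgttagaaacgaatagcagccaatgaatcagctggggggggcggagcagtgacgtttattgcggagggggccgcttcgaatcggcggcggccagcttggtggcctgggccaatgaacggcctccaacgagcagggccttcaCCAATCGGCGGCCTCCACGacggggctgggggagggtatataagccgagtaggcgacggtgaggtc
HSP90B1: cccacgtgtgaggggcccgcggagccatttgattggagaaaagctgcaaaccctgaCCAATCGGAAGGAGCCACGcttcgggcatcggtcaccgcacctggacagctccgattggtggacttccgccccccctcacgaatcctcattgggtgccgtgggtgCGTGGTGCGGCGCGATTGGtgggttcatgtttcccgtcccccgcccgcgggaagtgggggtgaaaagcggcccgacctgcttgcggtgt
HSPE1: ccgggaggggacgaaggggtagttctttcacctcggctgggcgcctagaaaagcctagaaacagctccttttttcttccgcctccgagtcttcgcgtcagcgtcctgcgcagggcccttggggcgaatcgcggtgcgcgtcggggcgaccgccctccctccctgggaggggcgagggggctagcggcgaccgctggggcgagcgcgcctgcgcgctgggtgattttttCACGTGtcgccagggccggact

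A heat shock element lay in the 300-base window of 21 of the 59 members (35.6%), against 4417 of 27305 genes with a window (16.2%). By class it was found in 15 of 27 cytosolic members (55.6%), 3 of 7 CCT subunits, 2 of 7 mitochondrial members and 0 of 12 ER members. The 4 matches in HSPA8 form 2 overlapping pairs. The ER stress response element was found in HSPA5 and HSP90B1 alone among members, and in 25 of the 27305 genes (0.0916%). The E-box was found in 7 of 59 members (11.9%), among them HSPA9, HSPD1 and HSPE1, against 8.77% of all genes. The start sites of HSPD1 and HSPE1 lie 105 bases apart on opposite strands of chromosome 2, and their E-box matches are the same site. HSPA1L and HSPA1A, whose start sites lie 260 bases apart on opposite strands, likewise share the same GAATATTC. The counts of members are therefore not counts of separate sites. These matches describe the letters of these windows alone.

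After 24 h of dasatinib most chaperone transcripts were lower than in the vehicle, in each of the main classes, while a few J proteins and 1 small heat shock protein were several-fold higher. Of the 67 members, 38 were lower and 5 were higher, so that 64.2% were called in either direction against 54% of all genes tested. The share called lower was 56.7% of members against 27.1% of all genes, and the share called higher was 7.46% against 26.9%. The median log2 fold change was -0.48 over members and 0.01 over all genes. The call rests on limma, with adjusted p (Benjamini-Hochberg over all genes) below 0.05, and errors of fold changes are standard errors (SE) of that fit.

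**Figure D1:**
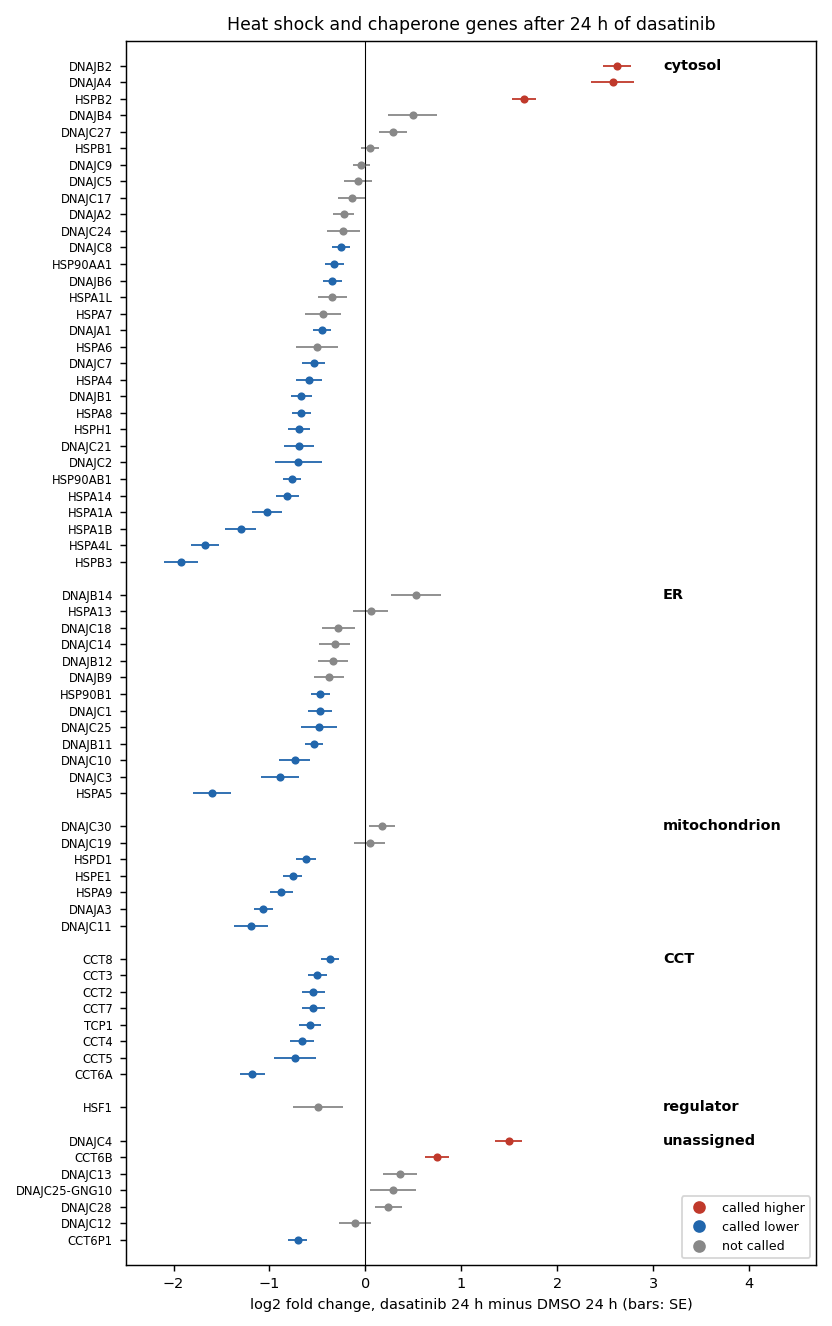
Log2 fold change of each of the 67 heat shock and chaperone genes at 24 h of dasatinib minus 24 h DMSO (horizontal axis), by class, with bars for SE. In the 4 named compartments most points lie left of 0, and DNAJB2, DNAJA4 and HSPB2 stand to the right at 2.62, 2.57 and 1.66.

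The number of members called grew with time, as did that of all genes. At 4 h of dasatinib 2 members were higher and 6 lower than in DMSO (11.9% called, against 11.9% of all genes, of which 5.29% were higher and 6.65% lower), all 8 of them cytosolic. At 8 h 6 were higher and 18 lower (35.8%, against 32% of all genes), and the share lower was 26.9% against 15.4% and the share higher 8.96% against 16.6%. Over the 3 comparisons, which share the DMSO arrays, 22 members were called at none, 19 were lower at 24 h alone, 13 were lower at 8 h and 24 h, and 4 (HSPA1A, HSPA1B, HSPA4L and DNAJC21) were called lower at all 3 times. The shares of all genes with these patterns are not given here. Calls over all genes grew too, from 11.9% at 4 h to 32% at 8 h and 54% at 24 h, so the patterns are not shown to be particular to members. DNAJC21, a J protein of ribosome assembly, had a 4 h log2 fold change of -0.56 ± 0.16 SE (adjusted p = 0.042), and that call ended in 15 alternatives, among them the replicate block (0.068), median scaling (0.11), the authors' value table (0.17) and 9 of the 12 omissions of 1 array (0.053 to 0.17). Its probe was detected on 1 of 3 arrays at 8 h. The medians were -0.02, -0.16 and -0.48 at 4 h, 8 h and 24 h. At 4 h the count fell to 5 without array C of the 4 h group, and the split was 3 higher and 5 lower with median scaling of the arrays and 1 higher and 7 lower in the authors' value table.

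**Figure D2:**
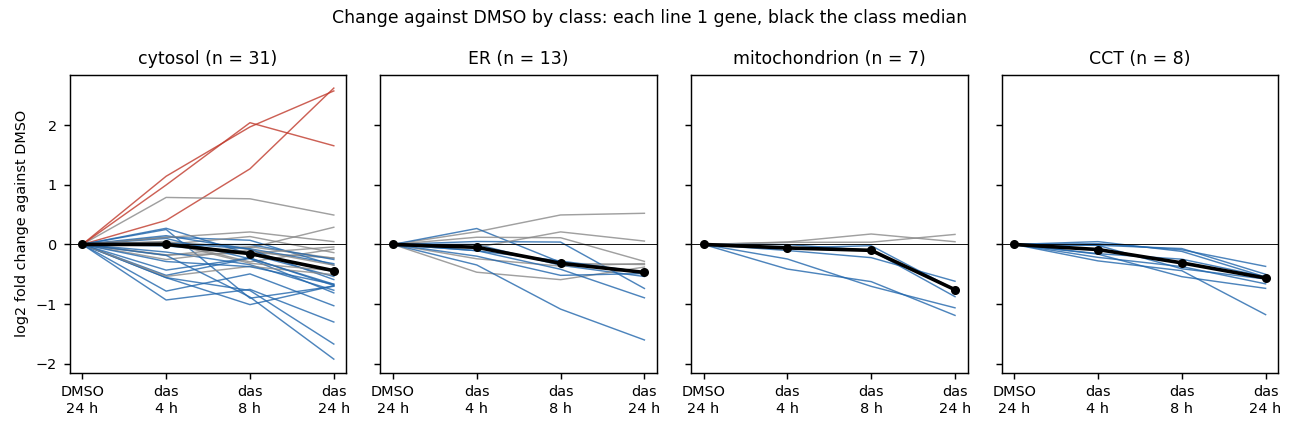
Log2 fold change against 24 h DMSO (vertical axis) at 4 h, 8 h and 24 h of dasatinib, with 1 line per gene and the class median in black. Red lines are genes higher and blue lines genes lower at 24 h, grey lines were not called there, and the medians at 24 h are -0.44 (cytosol), -0.47 (ER), -0.76 (mitochondrion) and -0.56 (CCT).

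HSPA1A, HSPA1B and DNAJB1 were lower by 4 h, while the inducible HSP70 gene HSPA6, with a dim probe, was not called there (-0.54 ± 0.22 SE, adjusted p = 0.15). HSPA1A, a stress-inducible HSP70, had log2 intensities of 12.15, 11.89 and 12.53 on the DMSO arrays, 11.44, 11.47 and 11.30 at 4 h, 11.80, 11.80 and 11.48 at 8 h, and 11.27, 11.21 and 10.998 at 24 h of dasatinib. Its neighbour HSPA1B, which encodes a nearly identical protein, had 11.25, 11.33 and 11.64 on the DMSO arrays, 10.70, 10.41 and 10.32 at 4 h, 10.67, 10.73 and 10.56 at 8 h, and 10.35, 10.23 and 9.74 at 24 h. Every dasatinib array lay below every DMSO array for both genes. HSPA1A was 1.72-fold lower at 4 h (log2 -0.78 ± 0.16 SE, adjusted p = 0.0062), 1.41-fold lower at 8 h (adjusted p = 0.029) and 2.04-fold lower at 24 h (-1.03, adjusted p = 0.00013). HSPA1B was 1.91-fold lower at 4 h (-0.93 ± 0.17 SE, adjusted p = 0.003), 1.69-fold lower at 8 h and 2.46-fold lower at 24 h (-1.30, adjusted p = 3.3e-05). Because the transcripts of these genes are so alike, their probes may each read both, and they are not separate evidence. The 8 h call of HSPA1A ended without array A or C of DMSO (adjusted p = 0.057 and 0.12) or array C of the 8 h group (0.11).

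DNAJB1, the inducible J protein that loads HSP70, followed a similar course. Its log2 intensities were 10.07, 10.32 and 10.45 on the DMSO arrays, 9.85, 9.81 and 9.64 at 4 h, 10.05, 10.05 and 10.06 at 8 h, and 9.55, 9.65 and 9.65 at 24 h of dasatinib. It was lower at 4 h (-0.52 ± 0.11 SE, adjusted p = 0.0083) and at 24 h (-0.67, adjusted p = 0.00023), and at 8 h its log2 difference was -0.23 (adjusted p = 0.13). HSPH1, the HSP110 exchange factor of HSP70, changed by -0.43 ± 0.11 SE at 4 h (adjusted p = 0.03), -0.23 at 8 h (adjusted p = 0.16) and -0.69 at 24 h (adjusted p = 0.00028). Between 8 h and 4 h neither gene was called (log2 differences 0.29 and 0.20, adjusted p = 0.11 and 0.29), so a return towards the vehicle at 8 h is not shown, while both were lower at 24 h than at 8 h (-0.43 and -0.46). HSPA4L, another exchange factor of the HSP110 group, was lower at each time, by -0.56, -0.77 and -1.67 ± 0.14 SE, and its 3 arrays at 24 h (6.81, 6.90 and 6.52) lay well below those of DMSO (8.52, 8.30 and 8.43). The 4 h calls of HSPH1 and HSPA4L each ended without array A or C of DMSO or array B or C of the 4 h group (adjusted p between 0.073 and 0.12).

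**Figure D3:**
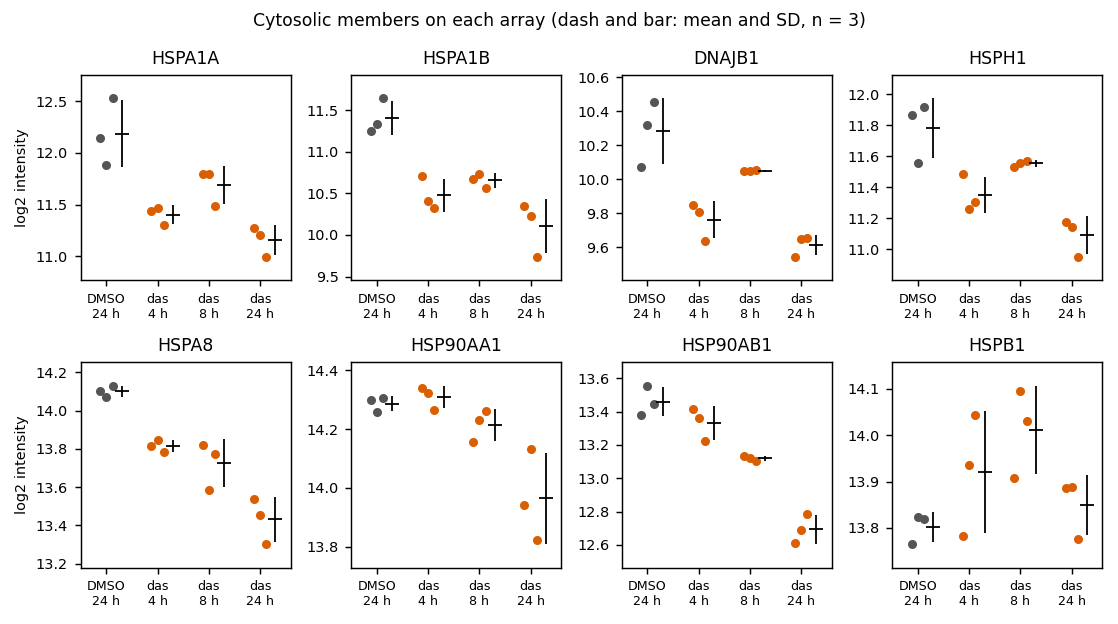
Log2 intensity (vertical axes, not starting at 0) of 8 cytosolic members on each of 3 arrays in each group, with the mean and SD. HSPA1A, HSPA1B, DNAJB1 and HSPH1 are below DMSO at 4 h and 24 h, and HSPB1 overlaps DMSO at 24 h.

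HSPA8 and the cytosolic HSP90 genes were not called at 4 h and were lower by 24 h. HSPA8, the constitutive HSP70, had 13.54, 13.45 and 13.30 at 24 h of dasatinib, against 14.10, 14.07 and 14.13 in DMSO, a 1.59-fold lower level (-0.67 ± 0.10 SE, adjusted p = 9.4e-05). At 4 h its log2 difference was -0.29, and its second probe gave -0.25. That 4 h value was called lower in the authors' value table (adjusted p = 0.013) and with no background correction (0.023). At 8 h HSPA8 was lower by -0.37 (adjusted p = 0.012), a call that ended with median scaling (0.2) and without array B of the 8 h group (0.053). HSP90AB1, the constitutive cytosolic HSP90, had 12.61, 12.69 and 12.78 at 24 h of dasatinib, against 13.38, 13.56 and 13.45 in DMSO (-0.77 ± 0.09 SE, adjusted p = 2.3e-05). These groups do not overlap for either gene. At 8 h HSP90AB1 was also called lower (-0.34). That call ended with median scaling (adjusted p = 0.11) and without array B of DMSO (0.06). HSP90AA1, the inducible form, had 13.94, 14.13 and 13.82 at 24 h of dasatinib, against 14.30, 14.26 and 14.31 in DMSO (-0.32 ± 0.10 SE, adjusted p = 0.013), and its call ended with median scaling (adjusted p = 0.4) and without array C of the 24 h dasatinib group (0.057). A second HSP90AA1 probe gave -0.57. DNAJA1, a J protein partner of HSPA8, was lower by -0.45 ± 0.10 SE at 24 h (adjusted p = 0.0016).

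The small heat shock proteins diverged from each other. HSPB1 (HSP27), which binds unfolded chains and actin, had 13.89, 13.89 and 13.78 at 24 h of dasatinib, against 13.77, 13.82 and 13.82 in DMSO, so that the groups overlap (0.05 ± 0.10 SE, adjusted p = 0.7). HSPB2 had 5.77, 5.65 and 5.76 on the DMSO arrays, 6.59, 6.61 and 6.98 at 4 h, 7.66, 7.79 and 7.85 at 8 h, and 7.18, 7.51 and 7.46 at 24 h of dasatinib. HSPB3, known in muscle as the partner of HSPB2, had 8.36, 8.18 and 8.21 on the DMSO arrays, 8.13, 8.10 and 7.97 at 4 h, 7.53, 7.05 and 7.52 at 8 h, and 6.52, 5.89 and 6.56 at 24 h. Thus HSPB2 was higher at every time, 2-fold at 4 h (1.00 ± 0.13 SE, adjusted p = 0.0003), 4.12-fold at 8 h and 3.15-fold at 24 h (adjusted p = 5.4e-07). It was lower at 24 h than at 8 h (-0.39, adjusted p = 0.032). HSPB3 was 3.79-fold lower at 24 h (-1.92 ± 0.18 SE, adjusted p = 2.3e-06), the lowest fold change of any member there.

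The other cytosolic members that were higher at 24 h were both J proteins. DNAJB2, a J protein with ubiquitin-binding motifs that is known from neurons, had 6.38, 5.9999 and 6.12 on the DMSO arrays, 6.72, 6.63 and 6.35 at 4 h, 7.58, 7.45 and 7.27 at 8 h, and 8.87, 8.96 and 8.53 at 24 h of dasatinib. It was 2.41-fold higher at 8 h (1.27 ± 0.15 SE, adjusted p = 5.9e-05) and 6.16-fold higher at 24 h (2.62, adjusted p = 4.8e-08), and higher at 24 h than at 8 h by 1.35 (adjusted p = 4.1e-05). A second DNAJB2 probe was detected on at most 2 arrays of a group and carries no course. DNAJA4 had 5.84, 5.03 and 5.30 on the DMSO arrays, 6.49, 6.84 and 6.28 at 4 h, 7.54, 7.34 and 7.21 at 8 h, and 7.92, 7.67 and 8.32 at 24 h. It was 2.21-fold higher at 4 h (1.14 ± 0.22 SE, adjusted p = 0.005), 3.92-fold at 8 h and 5.96-fold at 24 h (2.57, adjusted p = 1.3e-06). Its 4 h call ended in the authors' value table (adjusted p = 0.091), and 2 of its 3 DMSO arrays were detected. DNAJA4 carries 2 heat shock elements of the kind found in DNAJB1, in the window printed for each gene out of 3. At 4 h and 24 h DNAJA4 was higher and DNAJB1 lower, and the part of these elements in either course was not tested. DNAJB4 had log2 fold changes of 0.79, 0.77 and 0.49 (each ± 0.26 SE) at 4 h, 8 h and 24 h, with adjusted p = 0.07, 0.039 and 0.13, and its second probe gave 0.99, 0.84 and 0.90. A rise limited to 8 h is thus not shown: its 4 h value was called with both probes averaged (0.028), median scaling (0.049), no background correction (0.034), an offset of 50 (0.041), and without array A of DMSO (0.045) or array B of the 4 h group (0.038), and its 24 h value with both probes averaged (0.024) or with the 24 h array C left out (0.049). The 8 h call ended without array B or C of DMSO (0.12 and 0.13) or array B or C of the 8 h group (0.071 and 0.13), and in the authors' value table (0.071).

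**Figure D4:**
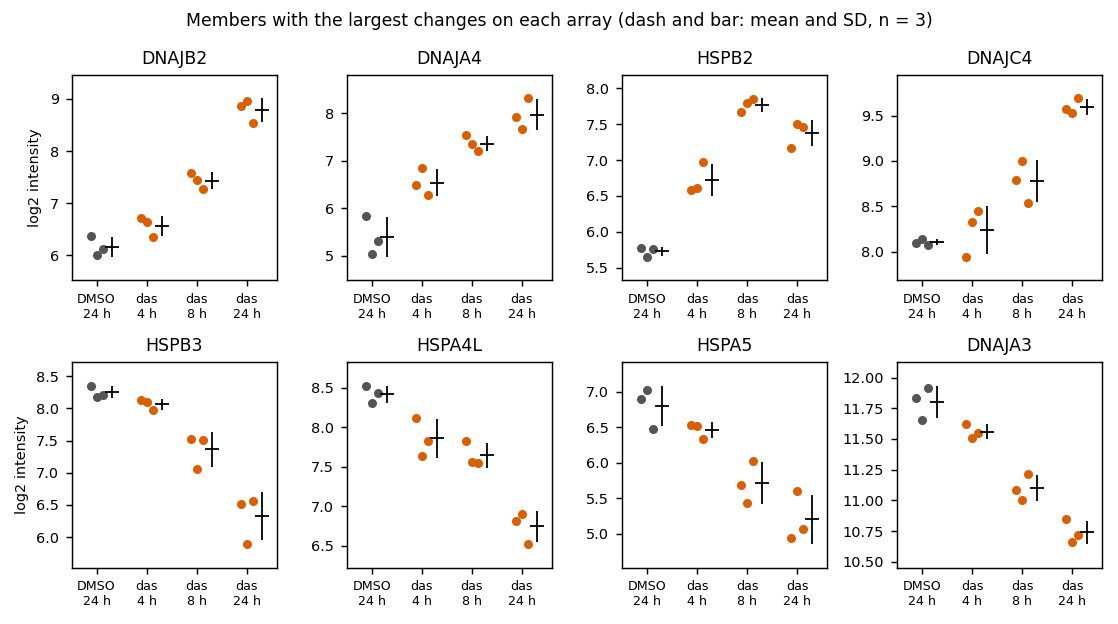
Log2 intensity (vertical axes, not starting at 0) of 8 members with large changes on each of 3 arrays in each group, with the mean and SD. DNAJB2, DNAJA4, HSPB2 and DNAJC4 are higher, and HSPB3, HSPA4L, HSPA5 and DNAJA3 lower, at 24 h of dasatinib than in DMSO, with no overlap.

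In all, 17 of 31 cytosolic members were lower (54.8%, against 27.1% of all genes) and 3 higher (9.68%, against 26.9%) at 24 h, with a median of -0.44. Among members with a promoter window, 15 of 21 with a heat shock element were lower and 2 higher at 24 h, against 19 of 38 lower and 2 higher without one. The medians were -0.58 and -0.35, and at 4 h they were -0.13 and 0.00. No test was made of this split, in which HSPA1L and HSPA1A count by the same site. HSF1, which binds that element, had a dim probe with 5.13, 4.76 and 5.94 at 24 h of dasatinib, against 5.52, 6.23 and 5.57 in DMSO, and the groups overlap (-0.49 ± 0.26 SE, adjusted p = 0.13). Without array C of the 24 h dasatinib group HSF1 was called lower (adjusted p = 0.0057). At 8 h its probe was below detection on 3 of 3 arrays, so its mean there was at least 1.44-fold lower than the DMSO mean. This bound leaves out the spread between arrays, and the 8 h difference (-0.57) was not called (adjusted p = 0.11). That difference was called when only these 2 groups were fitted (0.049) and without array C of the 24 h dasatinib group (0.033).

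ER chaperones were not called at 4 h. At 24 h 7 of 13 were lower (53.8%, against 27.1% of all genes) and 0 higher (against 26.9%), with a median of -0.47. The share called in either direction, 53.8%, was near the 54% of all genes. HSPA5 (BiP), the HSP70 of the ER and a hallmark of the unfolded protein response, had 6.90, 7.03 and 6.48 on the DMSO arrays, 6.53, 6.52 and 6.33 at 4 h, 5.69, 5.44 and 6.03 at 8 h, and 4.94, 5.60 and 5.07 at 24 h of dasatinib. The 8 h and 24 h arrays do not overlap with DMSO. It was 2.12-fold lower at 8 h (-1.08 ± 0.20 SE, adjusted p = 0.0013) and 3.04-fold lower at 24 h (-1.60, adjusted p = 2.6e-05). This probe is dim for HSPA5 and was detected on 1 of 3 arrays at 24 h, so its 24 h level lies near background.

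HSP90B1 (GRP94), the HSP90 of the ER, had 11.86, 11.60 and 11.66 at 24 h of dasatinib, against 12.17, 12.16 and 12.21 in DMSO (-0.47 ± 0.10 SE, adjusted p = 0.0014). DNAJB11, a J protein that assists BiP, had 11.15, 10.89 and 10.99 at 24 h of dasatinib, against 11.52, 11.55 and 11.58 in DMSO (-0.54 ± 0.10 SE, adjusted p = 0.0005). Neither gene's groups overlap. DNAJC3, which binds BiP and is known to restrain the kinase PERK, was lower by -0.90 ± 0.20 SE (adjusted p = 0.0022), and DNAJC10, a disulfide reductase with a J domain, by -0.74 ± 0.16 SE (adjusted p = 0.0019). DNAJB9, another target of the unfolded protein response, was lower at 8 h (-0.59 ± 0.15 SE, adjusted p = 0.012), with a log2 difference of -0.38 at 24 h (adjusted p = 0.053). A fall of DNAJB9 limited to 8 h is not shown. Its 24 h value was called lower in 8 alternatives (adjusted p = 0.011 to 0.043). Its 4 h value of -0.47 was called lower in 3 (0.012 to 0.046). The 8 h calls of HSP90B1 (-0.28, adjusted p = 0.046) and DNAJB11 (-0.35, adjusted p = 0.016) were not stable: that of DNAJB11 ended without array C of the 8 h group (0.058), and that of HSP90B1 ended without any single array of the DMSO or 8 h groups (0.067 to 0.12), array B of the 4 h group (0.057) or array C of the 24 h group (0.055). DNAJC25 was lower at 24 h (-0.49 ± 0.19 SE, adjusted p = 0.043), a call that ended with median scaling (0.071) and without array A or C of DMSO (0.13 and 0.084), array B or C of the 24 h group (0.077 and 0.15), array B of the 4 h group (0.052) or array C of the 8 h group (0.053).

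Most partners in the ER were lower as well. Of 19 genes of ER folding and the unfolded protein response, 11 were lower (57.9%, against 27.1% of all genes) and 3 higher (15.8%, against 26.9%) at 24 h, with a median of -0.43. MANF, a secreted ER stress protein, had 9.82, 9.62 and 9.70 at 24 h of dasatinib, against 11.29, 11.40 and 11.36 in DMSO (-1.63 ± 0.11 SE, adjusted p = 2.2e-07). SDF2L1, which works with BiP and DNAJB11, was lower by -1.39, XBP1, a transcription factor of the response, by -1.26, and HYOU1, the HSP110 of the ER, by -1.17. The 3 that were higher were DDIT3 (CHOP), a factor of prolonged ER and amino acid stress (1.04 ± 0.12 SE, adjusted p = 1.6e-05), PPP1R15A, which restores translation (0.67), and SIL1, an exchange factor of BiP (0.50).

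Mitochondrial chaperones were lower mainly between 8 h and 24 h. At 24 h 5 of 7 were lower than in DMSO (71.4%, against 27.1% of all genes) and 0 higher (against 26.9%), with a median of -0.76. The same count of 5 were lower at 24 h than at 8 h (71.4%, against 18.3% of all genes). HSPA9 (mortalin), the HSP70 of the matrix and its import motor, had 11.88, 11.93 and 11.57 at 24 h of dasatinib, against 12.79, 12.60 and 12.61 in DMSO. HSPD1 (HSP60), the matrix chaperonin, had 13.31, 13.29 and 13.01 at 24 h, against 13.85, 13.86 and 13.74 in DMSO. HSPE1 (HSP10), the lid of that chaperonin, had 12.59, 12.45 and 12.32 at 24 h, against 13.29, 13.09 and 13.25 in DMSO. For all 3 genes the 24 h arrays lay below every DMSO array (over all genes, 60.9% did not overlap in either direction). HSPA9 was lower by -0.88 ± 0.12 SE (adjusted p = 5.6e-05), HSPE1 by -0.76 ± 0.10 SE (adjusted p = 4.6e-05) and HSPD1 by -0.62 ± 0.10 SE (adjusted p = 0.00029). At 8 h their log2 differences were -0.10, -0.02 and -0.22 (adjusted p = 0.57, 0.9 and 0.12). A second HSPE1 probe gave 0.37 at 8 h and -0.75 at 24 h, so the 8 h value of HSPE1 depends on the probe. The 3 other HSPD1 probes gave -0.40, -1.22 and -0.26 at 24 h, the last of them undetected on all 3 arrays there, so the size of its change depends on the probe.

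DNAJA3 and DNAJC11 were lower by 8 h. DNAJA3 (TID1), the J protein of HSPA9, had 11.84, 11.66 and 11.91 on the DMSO arrays, 11.62, 11.51 and 11.55 at 4 h, 11.09, 11.003 and 11.21 at 8 h, and 10.84, 10.66 and 10.72 at 24 h of dasatinib. It was lower by -0.70 ± 0.10 SE at 8 h (adjusted p = 0.00027) and by -1.06 at 24 h (adjusted p = 3.2e-06), with no overlap at either time. The 4 h arrays of DNAJA3 did not overlap with DMSO either (over all genes, 27.7% did not). Its 4 h value (-0.24) was not called, but was called lower in the authors' value table (adjusted p = 0.048). DNAJC11, a mitochondrial J protein of the cristae machinery, was lower by -0.62 ± 0.18 SE at 8 h and -1.19 at 24 h (adjusted p = 0.00011), and its dim probe was detected on 1 of 3 arrays at 24 h. Its 8 h call ended with median scaling (adjusted p = 0.083) and without array A or B of DMSO (0.061 and 0.072) or array C of the 8 h group (0.054). Beside them GRPEL1, the exchange factor of HSPA9, had 10.66, 10.68 and 10.62 on the DMSO arrays, 9.38, 9.30 and 9.50 at 4 h, 9.24, 9.18 and 9.11 at 8 h, and 8.85, 9.10 and 9.17 at 24 h of dasatinib, so that most of its difference was present at 4 h.

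The CCT chaperonin, a double ring that folds actin and tubulin, was lower in all its subunits at 24 h. All 8 subunits were called lower, and on no subunit did the 3 arrays of 24 h dasatinib overlap with those of DMSO (100% of subunits, against 60.9% of all genes). The log2 fold changes were -1.18 for CCT6A, -0.74 for CCT5, -0.66 for CCT4, -0.58 for TCP1, -0.55 for CCT7, -0.54 for CCT2, -0.50 for CCT3 and -0.37 for CCT8, with a median of -0.56. CCT6A had 10.34, 10.35 and 10.52 at 24 h of dasatinib, against 11.73, 11.63 and 11.38 in DMSO (SE 0.13, adjusted p = 1.2e-05). CCT8 had 12.70, 12.81 and 12.57 at 24 h, against 13.10, 13.06 and 13.03 in DMSO (SE 0.10, adjusted p = 0.0063). A second CCT6A probe gave -0.69.

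At 8 h 3 of 8 subunits were called lower (37.5%, against 15.4% of all genes), namely CCT6A, TCP1 and CCT4, at -0.44, -0.41 and -0.37. At 4 h none was called. Each of those 8 h calls ended without some single arrays: CCT6A without array A or B of DMSO or array B or C of the 8 h group (adjusted p = 0.067 to 0.088), TCP1 without array A or B of DMSO or array A of the 8 h group (0.05 to 0.065), and CCT4 without any of 10 arrays (0.052 to 0.12). All 8 subunits had negative log2 fold changes at 8 h. The largest was that of CCT5 (-0.54), which was not called but was called lower in 5 alternatives (adjusted p = 0.024 to 0.049). A fall at 8 h limited to 3 subunits is thus not shown. The 2 other TCP1 probes gave -0.03 and -0.41 at 8 h, and -0.81 and -0.88 at 24 h. Of the copies of CCT6A, the pseudogene CCT6P1 had a probe that was lower by -0.71 ± 0.10 SE at 24 h and may read CCT6A itself. CCT6B, a testis paralogue, was higher (0.74 ± 0.13 SE, adjusted p = 0.00034) with dim values of 6.65, 6.49 and 6.34 at 24 h of dasatinib, against 5.91, 5.50 and 5.83 in DMSO. Among the members with no compartment, DNAJC4 was higher too, with 9.57, 9.53 and 9.69 at 24 h, against 8.10, 8.14 and 8.07 in DMSO (1.49 ± 0.14 SE, adjusted p = 3.2e-06).

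**Figure D5:**
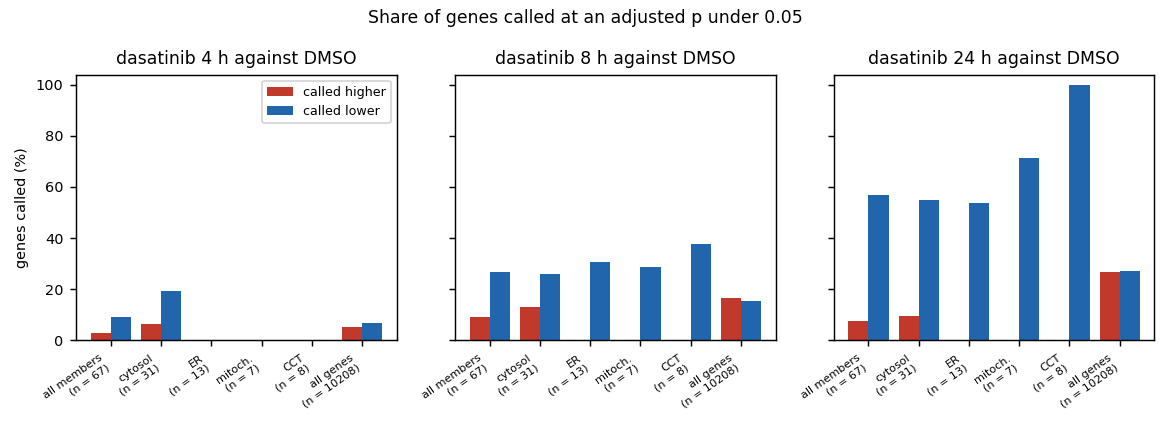
Percentage of genes called higher (red) and lower (blue) against 24 h DMSO at 4 h, 8 h and 24 h of dasatinib, for all members, for 4 classes and for all 10208 genes tested. At 24 h the share lower is 56.7% over members and 100% over CCT subunits, against 27.1% over all genes.

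Most cochaperones of HSP70 and HSP90 were lower at 24 h. Of 18, 14 were lower (77.8%, against 27.1% of all genes) and 2 higher (11.1%, against 26.9%) at 24 h, with a median of -0.70. At 4 h 2 were lower (11.1%, against 6.65%) and at 8 h 4 (22.2%, against 15.4%), shares near those of all genes. FKBP4, an immunophilin that binds HSP90, had 10.42, 10.38 and 10.40 on the DMSO arrays, 10.11, 10.02 and 9.94 at 4 h, 9.60, 9.40 and 9.61 at 8 h, and 8.70, 8.35 and 8.28 at 24 h of dasatinib, and was 3.88-fold lower at 24 h (-1.96 ± 0.12 SE, adjusted p = 7e-08). CHORDC1, another HSP90 cochaperone, was lower by -1.42 ± 0.14 SE, and the HSP70 exchange factors HSPBP1 and BAG2 by -1.12 and -0.96. The 2 that were higher were ST13 (HIP), which stabilises HSP70 bound to its client (0.73), and BAG6, which handles misdelivered membrane proteins (0.47).

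Differences between dasatinib times do not involve the vehicle. Time in drug and time in low serum differ together in them, which cannot be told apart. At 24 h against 8 h, 4 members were higher and 25 lower (43.3% called, against 35.7% of all genes, 17.5% higher and 18.3% lower), with 5 of 7 mitochondrial, 4 of 8 CCT, 14 of 31 cytosolic and 1 of 13 ER members lower. At 24 h against 4 h, 5 were higher and 31 lower (53.7%, against 45.7% of all genes, 23.2% higher and 22.6% lower), among them all 8 CCT subunits. At 8 h against 4 h, 5 were higher and 8 lower (19.4%, against 11.3% of all genes, 5.98% higher and 5.3% lower), and HSPA5 was among the lower ones (-0.74 ± 0.20 SE, adjusted p = 0.032). The count at 8 h against 4 h was 6, 7 and 8 without arrays A, B and C of the 4 h group and 6 and 4 without arrays A and B of the 8 h group, and at 24 h against 8 h it was 19 without array A of the 8 h group.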

How the data were processed

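The deposited probe signals are intensity values, not background-subtracted or normalized between arrays as far as the values show, each with a detection p-value per the file headers. The authors also deposited a log2 value table, made by steps not given in the sources used here, which served as an alternative. The BMS of the signal headers was taken to mean dasatinib, and every signal column ranked its probes exactly as 1 column of that table in its own group (12 of 12). Signals were background-corrected (the moments of the negative controls being estimated through detection p-values), given an offset of 16, quantile-normalized and taken to log2 (neqc in limma 3.58.1, R 4.3.3, statmod 1.5.0). Correction widens and the offset narrows fold changes of dim probes. Probes with no gene name (17198) or several (8) were left out, and the probe with the highest mean represented each gene (2604 genes had more than 1 passing probe). One mean per group was fitted to 12 arrays (8 residual and 4.08 prior degrees of freedom), and moderated two-sided p-values of 6 comparisons were adjusted by the Benjamini-Hochberg method over 10208 genes. The fit was tested on simulated data. A probe undetected on all 3 arrays of a group was raised there to the lowest detected value of the same array. This gives a bound on the difference of means, without the spread between arrays.

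Members, lists and tests were chosen with earlier results of these data known. Members with values in the text are those of textbook interest fixed by name, the 5 called members per class with the largest change at 24 h against DMSO (3 at 4 h and 8 h), the largest called change against each class's majority, and 4 called genes per partner list. DNAJC21, DNAJB4 and the partners that moved against their list were named after their values were seen. Promoter windows are RefSeq's for GRCh38.p14 (Python 3.11.15, pandas 2.3.3, matplotlib 3.10.9), and a gene counts as matched if any of its windows holds the motif. For a gene with several windows, the window with the most matches was printed. Precision is limited by having 3 arrays per group.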

Additional observations from a re-analysis of the deposited data

How the results depend on the processing

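No member's call changed direction under any alternative. Of 43 calls at 24 h against DMSO, 39 held in every alternative, out of 21, that tested the gene. The same was true of 11 of 24 calls at 8 h and 4 of 8 at 4 h. At 8 h against 4 h, 4 of 13 calls held in this way. At 24 h against 8 h 16 of 29 did, and at 24 h against 4 h 32 of 36. The alternative limited to genes detected on all 12 arrays tested 58 members. It shared 39 of the 43 calls at 24 h, 20 of the 24 at 8 h and 6 of the 8 at 4 h. HSPA5, DNAJC11, DNAJC21 and DNAJA4 were not in that fit, so their calls were not tried there. Among the alternatives that kept all 12 arrays, the number of members called moved by over 1.5 times in these: 5 at 4 h against DMSO when only the 2 groups compared were fitted, and 6 at 8 h against 4 h with no detection filter. Leaving out each array in turn gave 5 to 9 members at 4 h, 16 to 25 at 8 h and 40 to 45 at 24 h against DMSO, 4 to 13 at 8 h against 4 h, 19 to 30 at 24 h against 8 h and 34 to 37 at 24 h against 4 h. Of these omissions, 7 moved a count by over 1.5 times: the 4 h array C (5 members at 4 h against DMSO), the 4 h arrays A, B and C (6, 7 and 8) and 8 h arrays A and B (6 and 4) at 8 h against 4 h, and the 8 h array A at 24 h against 8 h (19, against 29 with all arrays). With the array letter as a replicate block the counts were 8, 25 and 44 at 4 h, 8 h and 24 h against DMSO, and 13, 28 and 36 at 8 h against 4 h, 24 h against 8 h and 24 h against 4 h. Deviations of same-letter arrays correlated at -0.08 to 0.19, with 4 of 18 pairs over 0.1, and 10 of 12 arrays correlated best with their own letter, a hint from the data and not from the design, so the letters are not shown to pair the arrays. Dim probes (HSPA5, DNAJC11, HSF1) limit their own fold changes, since their values lie near background at 24 h.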

Other observations

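The remaining partner lists held fewer changes or mixed ones. Of 13 genes of mitochondrial folding and proteolysis, 9 were lower (69.2%, against 27.1% of all genes) and 1 (SPG7, at 0.50) higher at 24 h of dasatinib against DMSO, with a median of -0.43. The lower ones included GRPEL1 (-1.61 ± 0.10 SE, adjusted p = 1.2e-07), TIMM44, which tethers HSPA9 to the import channel (-1.11 ± 0.14 SE), the matrix protease LONP1 (-0.73 ± 0.10 SE) and TRAP1, the mitochondrial HSP90 (-0.67 ± 0.12 SE). Of 5 measured genes of prefoldin, the cochaperone that hands actin and tubulin to CCT, PFDN6 was lower (-0.98 ± 0.09 SE, adjusted p = 2e-06) and PFDN5 higher (0.49 ± 0.09 SE), and the other 3 were not called. Of 3 genes in a list of heat shock factors and HSF1 control, HSF4 was called higher at 24 h (adjusted p = 0.0063 in limma), but its probe was below detection on all 3 DMSO arrays, so that its level was at least 1.03-fold higher (measured means 5.28 at 24 h of dasatinib and 4.80 in DMSO).

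By protein family, 9 of 13 HSPA and HSPH1 genes were lower (69.2%, against 27.1% of all genes) and 0 higher at 24 h, with a median of -0.69. All 3 HSP90 genes were lower, with a median of -0.47. Of 35 J proteins 14 were lower and 3 higher (48.6% called, below the 54% of all genes), with a median of -0.25, and the share lower was 40%, against 27.1% of all genes. Counted among the 35 by its symbol is DNAJC25-GNG10, which has the same start site as DNAJC25 and was not called. The 4 passing DNAJB12 probes gave -0.34, -0.84, -0.68 and 0.21 at 24 h, and DNAJC28 rests on 1 bright probe (mean log2 13.71) while its 3 other probes were undetected on most arrays, so values of both genes depend on which probe is read.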
